A study of Homo sapiens with 20 samples.

Results

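The 8 genes described here, SQSTM1, GABARAPL1, MAP1LC3B, WIPI1, ULK1, BECN1, ATG5 and TFEB, are autophagy genes that have been reported as targets of the histone methyltransferases G9a (EHMT2) and GLP (EHMT1). They were chosen by symbol, and each matched 1 of the 57773 gene rows of both count tables. RNA-seq was carried out in LNCaP, a human prostate adenocarcinoma cell line that depends on the androgen receptor. In the first table, LNCaP cells had been transfected for 2 days with 20 nM of non-targeting siRNA (siNTC, n = 2) or siRNA to EHMT1 (siEHMT1, n = 2). The paper's methods describe the siRNAs as predesigned pools. In the second table, 4 stable LNCaP lines carried a lentiviral, puromycin-selected pLIX_403 construct in which doxycycline switches on V5-tagged EHMT1, as WT or with a lysine replaced by arginine (K450R, K451R, or both in K450RK451R). Each line was left without doxycycline (Veh) or received 0.25 µg/mL of it for 2 days (Dox), with 2 columns for each of the 8 conditions. All stable-line samples, Veh included, therefore carry the construct and the endogenous EHMT1, each EHMT1 form is represented by 1 line, and an empty-vector line was not analysed here, so an effect of doxycycline itself and one of the induced protein cannot be told apart. RNA was taken from whole cultures, in which fewer cells of a state and less RNA per cell cannot be told apart.

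Autophagy encloses cytoplasm in a double membrane, the autophagosome, and delivers it to the lysosome. The ULK1 kinase starts the process, the BECN1 lipid kinase complex marks the site with a phosphoinositide that WIPI proteins read, and a conjugation machinery that contains ATG5 attaches proteins of the ATG8 family, MAP1LC3B and GABARAPL1 among them, to the growing membrane. SQSTM1 (p62) tethers ubiquitinated cargo to these ATG8 proteins and is itself degraded, while TFEB is a transcription factor for autophagy and lysosome genes. EHMT1 and EHMT2 together dimethylate lysine 9 of histone H3, a mark of gene repression, and the comparisons ask how mRNA levels of these genes differed when EHMT1 was silenced or a form of it was induced.

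The promoters of the 2 ATG8 family members are printed here because these genes had the largest fitted differences with Dox among the 8. Each is the RefSeq window on GRCh38.p14 from 250 bases before the annotated start to 50 after it, 5′ to 3′ on the strand of the gene. The MAP1LC3B window is chr16:87392086-87392385 on the plus strand, with 75.7% G and C, and the GABARAPL1 window is chr12:10212627-10212926 on the plus strand, with 51.7%. Capitals mark the GC box GGGCGG, read on either strand, and the cyclic AMP response element TGACGTCA.
MAP1LC3B: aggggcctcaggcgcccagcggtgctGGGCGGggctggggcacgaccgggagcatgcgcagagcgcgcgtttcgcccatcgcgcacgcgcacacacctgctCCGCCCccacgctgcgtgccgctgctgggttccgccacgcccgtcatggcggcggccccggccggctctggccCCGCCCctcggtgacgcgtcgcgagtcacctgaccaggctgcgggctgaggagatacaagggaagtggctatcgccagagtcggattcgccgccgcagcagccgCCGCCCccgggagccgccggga
GABARAPL1: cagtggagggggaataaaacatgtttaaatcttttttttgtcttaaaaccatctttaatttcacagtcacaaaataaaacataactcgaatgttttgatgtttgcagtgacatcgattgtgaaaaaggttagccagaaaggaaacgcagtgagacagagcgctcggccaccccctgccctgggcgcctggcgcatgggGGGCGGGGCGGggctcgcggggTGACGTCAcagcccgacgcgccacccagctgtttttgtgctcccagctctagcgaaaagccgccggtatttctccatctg

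RefSeq listed 13 such windows for the 8 genes, and 4 motifs were searched in them on both strands. The GC box was present in 11 of 13 windows, against 45% of all 35116 promoters. It occurred 4 times in the MAP1LC3B window and 2 times in the GABARAPL1 window, where the pair overlapped by a shared base. TGACGTCA was present in 1 of 13, that of GABARAPL1, where it began 30 bases before the annotated start, and in 1.85% of all promoters. The CLEAR-type E-box CACGTG, the core of the element that TFEB binds, was found in 0 of 13 windows, against 7.26% of all promoters, and CCAAT in 3 of 13, against 34.6%. Matches are descriptions of letters in these windows, and no binding or histone data were used here.

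Total counts lay between 5593400 and 12438006 in the 4 siRNA samples and between 4168199 and 6272708 in the stable-line columns. Paired columns of a stable-line condition differed by no more than counting noise (chi-square per degree of freedom 0.995 to 1.02) and were summed to 1 sample, of 8436791 to 12407739 counts. The siRNA replicates differed far more, and siNTC replicate 2 stood apart with 10.0% of its counts on 2 pseudogenes that resemble ribosomal RNA, against 0.0531% to 1.01% in the other siRNA samples. EHMT1 followed its labels, at 87.9 and 82.8 CPM (the count relative to the library size after scaling by TMM, edgeR's trimmed mean of M-values) in siNTC against 29.2 and 30.7 in siEHMT1, and at 71.0 to 88.4 under Veh against 662 to 841 under Dox, where reads of the introduced sequence are counted too. EHMT2 was at 56.7 to 63.0 CPM in the siRNA samples and 82.0 to 87.8 in the stable lines. All 7 luminal prostate markers were present in all 12 samples (KLK3 at 2910 to 8325 CPM). The basal markers TP63 and KRT5 and the leukocyte marker PTPRC were at 0 throughout, CD3E was at most 0.0847 CPM, and of the fibroblast markers COL1A2 was at 0, DCN was at most 0.0773 CPM and COL1A1 was at 15.3 to 40.9 CPM. The endothelial marker VWF was at 7.63 and 9.28 CPM in siNTC against 15.6 and 15.98 in siEHMT1, and its part in the results was not tested. No source used here says that the siRNA replicates came from separate cultures, so the p-values measure the spread between these samples, which may be technical.

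All 8 genes were counted in all 12 samples, from 41 counts for MAP1LC3B in siNTC replicate 2 to 9409 for SQSTM1 in WT Veh, and all passed the filter on low counts in every fit. Per kilobase of exon, which allows levels to be compared between genes, SQSTM1 was the most abundant, at 58.0 ± 1.04 CPM per kb in siNTC (SD, n = 2) and 88.1 ± 12.3 under Veh (SD, n = 4). GABARAPL1 came next in both tables, with 10.2 ± 0.463 in siNTC and 28.8 ± 2.24 under Veh. BECN1 (9.98 ± 1.47), ATG5 (6.37 ± 0.633), ULK1 (5.86 ± 0.334), WIPI1 (4.39 ± 0.544) and TFEB (2.35 ± 0.521) followed in siNTC, all in CPM per kb, and MAP1LC3B was the lowest there at 1.40 ± 0.277. Under Veh the other 6 genes lay between 7.23 ± 0.871 (BECN1) and 3.33 ± 0.237 (TFEB), with MAP1LC3B at 4.05 ± 0.852. The exonic lengths come from a current annotation rather than the one used for counting, so these values give an order and not molar amounts.

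**Figure D1:**
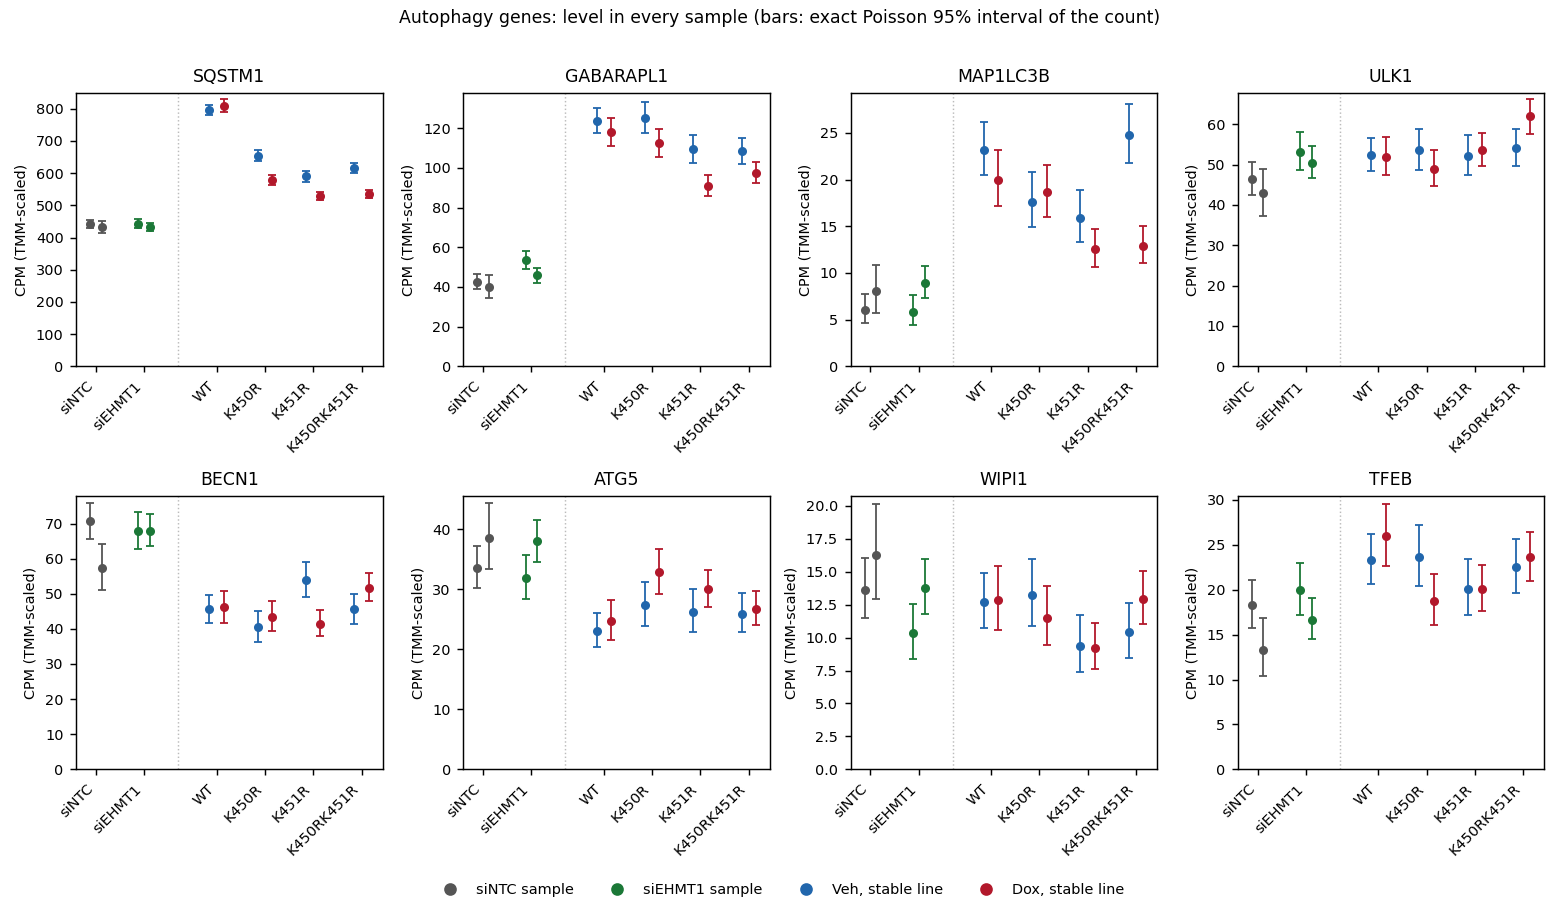
Each panel plots 1 gene, with TMM-scaled CPM on the vertical axis from 0 and the 4 siRNA samples and 8 stable-line conditions on the horizontal axis; bars are exact Poisson 95% intervals of the count and cover counting error only. SQSTM1 stood highest in the WT line with and without Dox, GABARAPL1 and MAP1LC3B were lower in the siRNA samples than in the stable lines, and the Veh and Dox intervals of MAP1LC3B were apart in K450RK451R.

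None of the 8 genes passed an adjusted p of 0.05 in any of the 3 comparisons that were tested: siEHMT1 against siNTC, Dox against Veh over the 4 lines, and the Dox effect of WT against that of the 3 mutants. The p-values come from the quasi-likelihood test of edgeR and were adjusted over all genes tested in a comparison by the Benjamini-Hochberg method. For siEHMT1, 19 of 14532 genes were called, or 0.131%, and 0 of the 8. At an unadjusted p under 0.05 the share was 9.55%, and 1 of the 8 genes, GABARAPL1, was among them. For Dox, 298 of 14105 genes were called, or 2.11%, and 0 of the 8. At an unadjusted p under 0.05 the share was 14.4%, and the 3 genes MAP1LC3B, GABARAPL1 and SQSTM1 were among them, all lower with Dox, as were 7.55% of all genes. For WT against the mutants, 23 genes were called, or 0.163%, and 0 of the 8, with SQSTM1 the 1 gene of the 8 at an unadjusted p under 0.05, against 7.10% of all genes. Limma-voom also called 0 of the 8 in each comparison. DESeq2 called 0 of the 8 for Dox, 0 of the 4 to which it gave an adjusted p for siEHMT1, and 0 of 1 (SQSTM1) for WT against the mutants, so that the genes it left without one could not be called. With the WT line left out edgeR called 1, SQSTM1, for Dox, in a fit that called 501 of all genes, against 298 with all lines.

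**Figure D2:**
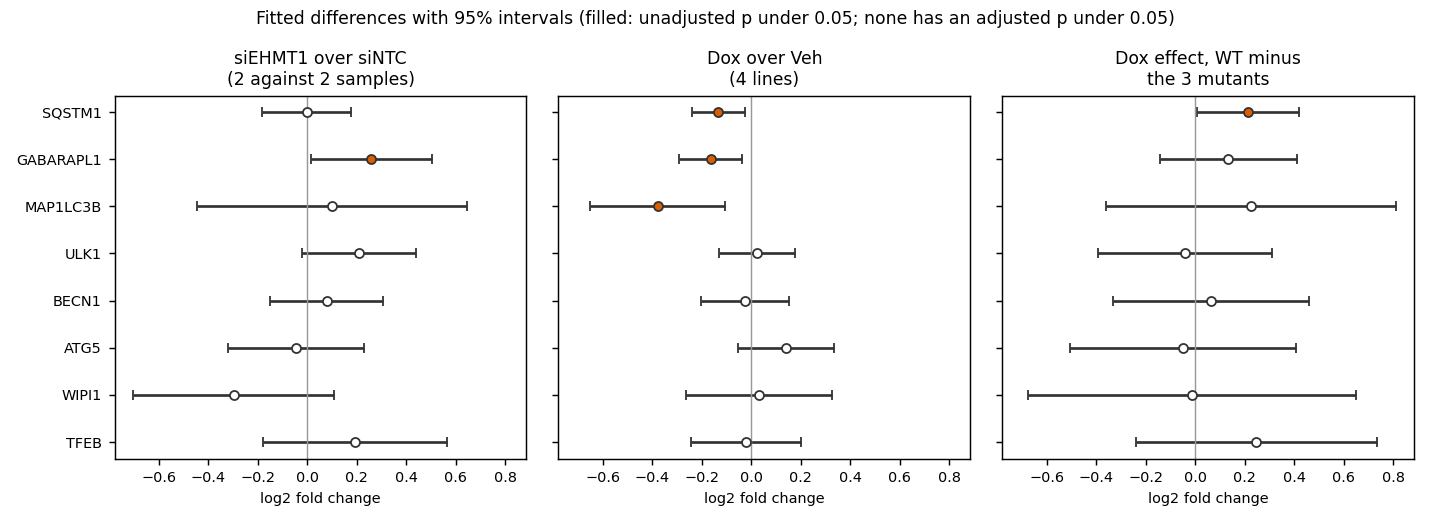
Fitted log2 fold changes (horizontal axis) of the 8 genes with 95% intervals in the 3 comparisons; filled points have an unadjusted p under 0.05. GABARAPL1 is at 0.26 with siEHMT1 and at −0.16 with Dox, and every interval in the first panel lies between −0.70 and 0.65.

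ULK1 (ENSG00000177169, chr12:132379167-132407695 on the plus strand of GRCh37) encodes the kinase that starts autophagosome formation. Its level was 46.5 and 42.9 CPM in siNTC and 53.3 and 50.4 in siEHMT1. Both siEHMT1 samples were thus above both siNTC samples, as in 20.1% of all genes tested. The log2 fold change was 0.21 (SE 0.11, 95% interval −0.022 to 0.44, edgeR adjusted p = 0.57). In the stable lines, Veh and Dox gave 52.4 and 52.0 CPM for WT, 53.6 and 49.0 for K450R, 52.1 and 53.6 for K451R and 54.1 and 62.0 for K450RK451R. The pair furthest apart was that of K450RK451R (ratio 1.15), and its Poisson intervals overlapped. The 4 Veh levels were close to each other, 53.0 ± 0.923 CPM (SD, n = 4), and the Dox log2 fold change was 0.023 (SE 0.075, 95% interval −0.13 to 0.18, edgeR adjusted p = 0.93).

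BECN1 (ENSG00000126581, chr17:40962152-40985367 on the minus strand of GRCh37) is the regulatory subunit of the lipid kinase complex that nucleates the membrane. It was at 70.7 and 57.4 CPM in siNTC, and at 67.8 and 68.0 in siEHMT1, inside the siNTC range. The log2 fold change was 0.078 (SE 0.11, 95% interval −0.15 to 0.31, edgeR adjusted p = 0.87). Under Veh and Dox it was at 45.6 and 46.1 CPM for WT, 40.4 and 43.5 for K450R, 53.9 and 41.5 for K451R, and 45.6 and 51.7 for K450RK451R. The Dox level was the lower in K451R and the higher in the other lines, and K451R was the 1 line whose Poisson intervals did not overlap (448 of 8490600 counts and 509 of 11599349). Over the 4 lines the log2 fold change was −0.026 (SE 0.087, 95% interval −0.20 to 0.15, edgeR adjusted p = 0.94). Of its exonic bases, 795 lie under exons of CNTD1 and 300 under exons of PSME3 on the opposite strand, and whether counting used strand is not given in the sources used here.

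WIPI1 (ENSG00000070540, chr17:66417089-66453654 on the minus strand of GRCh37) encodes a phosphoinositide reader at the forming autophagosome. The siNTC samples had 13.6 and 16.3 CPM and the siEHMT1 samples 10.3 and 13.8, so the groups overlapped. With siEHMT1 the log2 fold change was −0.30 (SE 0.19, 95% interval −0.70 to 0.11, edgeR adjusted p = 0.66), and −0.53 to −0.11 with 1 sample left out. Its Veh and Dox levels were 12.7 and 12.9 CPM for WT, 13.2 and 11.5 for K450R, 9.39 and 9.21 for K451R, and 10.4 and 12.9 for K450RK451R. With 78 to 173 counts a sample, every pair of Poisson intervals overlapped, and the lines split with 2 higher and 2 lower. The Dox log2 fold change was 0.031 (SE 0.14, 95% interval −0.27 to 0.33, edgeR adjusted p = 0.96). Exons of ARSG on the opposite strand cover 829 of the 3403 exonic bases of WIPI1.

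ATG5 (ENSG00000057663, chr6:106493298-106773666 on the minus strand of GRCh37) forms, with ATG12 and ATG16L1, the complex that attaches ATG8 proteins to lipid. It was at 33.5 and 38.6 CPM in siNTC and 31.9 and 37.9 in siEHMT1. The groups overlapped, and the log2 fold change was −0.046 (SE 0.13, 95% interval −0.32 to 0.23, edgeR adjusted p = 0.95). In the stable lines it was the 1 gene of the 8 that was higher with Dox in 4 of 4 lines, as were 11.2% of all genes tested. The Veh and Dox levels were 23.0 and 24.7 CPM for WT, 27.3 and 32.8 for K450R, 26.2 and 29.9 for K451R and 25.9 and 26.8 for K450RK451R. With upper-quartile scaling the K450RK451R log2 ratio was −0.0071, and on column 2 of each condition alone those of WT and K450RK451R were −0.097 and −0.047, so that the count of 4 did not hold there. The log2 fold change was 0.14 (SE 0.095, 95% interval −0.052 to 0.34, edgeR adjusted p = 0.53).

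MAP1LC3B (ENSG00000140941, chr16:87417559-87438385 on the plus strand of GRCh37) encodes LC3B, the ATG8 protein whose lipid-bound form marks autophagosomes. It was at 6.06 and 8.03 CPM in siNTC and 5.85 and 8.92 in siEHMT1, from 41 to 112 counts. The samples of each group were further apart than the group means, and the log2 fold change of 0.10 came with a wide interval (SE 0.26, 95% interval −0.45 to 0.65, edgeR adjusted p = 0.94). Under Veh and Dox it was at 23.2 and 19.96 CPM for WT, 17.6 and 18.6 for K450R, 15.9 and 12.6 for K451R and 24.8 and 12.9 for K450RK451R. The K450RK451R difference, 246 and 167 counts, was the 1 of 32 gene and line pairs past 1.5-fold, at a ratio of 0.520, beside 12.6% of such pairs over all genes. In that line 5.51% of all genes were at least 1.5-fold lower, and 1.31% of the genes with a mean of at least 100 counts, a minimum chosen after the values were seen. Over the 4 lines the log2 fold change was −0.38 (SE 0.13, 95% interval −0.65 to −0.10, unadjusted p = 0.0085 and adjusted p = 0.15 in edgeR's test). It was −0.17 without the K450RK451R line, −0.44 without WT, −0.51 without K450R and −0.38 without K451R. The size of the estimate thus depended on the lines included. MAP1LC3B2, a gene with 98% identity to MAP1LC3B over 741 bases, had 3 to 24 counts in any sample, and how reads shared by both were counted is not given in the sources used here.

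GABARAPL1 (ENSG00000139112, chr12:10365057-10375727 on the plus strand of GRCh37) encodes the other ATG8 protein of the group. It was at 42.6 and 39.9 CPM in siNTC and at 53.4 and 45.8 in siEHMT1. Both siEHMT1 samples were the higher, as in 20.1% of all genes tested. The log2 fold change was 0.26 (SE 0.12, 95% interval 0.015 to 0.50, unadjusted p = 0.039 and adjusted p = 0.49 in edgeR's test). In the stable lines it was lower with Dox in 4 of 4 lines, as were 9.72% of all genes. The levels were 124 and 118.0 CPM for WT, 125 and 112 for K450R, 109 and 91.1 for K451R and 108 and 97.6 for K450RK451R. The smallest step was that of WT, whose log2 ratio was 0.027 on column 2 alone, and K451R was the 1 line whose Poisson intervals did not overlap. The log2 fold change was −0.16 (SE 0.062, 95% interval −0.29 to −0.039, unadjusted p = 0.012 and adjusted p = 0.18 in edgeR's test). GABARAPL1 was the 1 gene of the 8 with an unadjusted p under 0.05 in both tables, higher with siEHMT1 and lower with Dox, as were 0.727% of the 13617 genes tested in both. GABARAPL1-AS1 on the opposite strand shares 329 of its exonic bases.

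SQSTM1 (ENSG00000161011, chr5:179233398-179265078 on the plus strand of GRCh37) encodes p62, the cargo receptor. It was at 443 and 432 CPM in siNTC and 443 and 433 in siEHMT1, so that groups and replicates coincided. The log2 fold change was −0.0024 (SE 0.086, 95% interval −0.18 to 0.18, edgeR adjusted p = 1.00), and its sign changed with the scaling. In the stable lines the WT line had 797 CPM under Veh and 810 under Dox. The mutants had less and were lower with Dox, at 654 and 579 CPM for K450R, 590 and 530 for K451R and 616 and 535 for K450RK451R. The Poisson intervals of Veh and Dox overlapped in WT and did not overlap in the 3 mutants. Over the 4 lines the log2 fold change was −0.13 (SE 0.053, 95% interval −0.24 to −0.024, unadjusted p = 0.019 and adjusted p = 0.22 in edgeR's test). Without the WT line it was −0.19, with an edgeR adjusted p of 0.031, in a fit that called 501 of all genes, against 298 with all lines. The Dox effect of WT lay above the mean of the mutants by 0.22 on the log2 scale (SE 0.10, 95% interval 0.0089 to 0.42, unadjusted p = 0.041 and adjusted p = 0.68 in edgeR's test). A ratio above 1 in WT and below 1 in all 3 mutants, as here, was found for 7.13% of all genes. Exons of MRNIP on the opposite strand cover 1582 of the 7535 exonic bases of SQSTM1.

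TFEB (ENSG00000112561, chr6:41651716-41703997 on the minus strand of GRCh37), the transcription factor of the group, was at 18.3 and 13.3 CPM in siNTC and 19.9 and 16.7 in siEHMT1. The groups overlapped, with a log2 fold change of 0.19 (SE 0.18, 95% interval −0.18 to 0.56, edgeR adjusted p = 0.77), and 0.0011 to 0.44 with 1 sample left out. Under Veh and Dox it was at 23.3 and 25.9 CPM for WT, 23.7 and 18.8 for K450R, 20.1 and 20.1 for K451R, and 22.5 and 23.6 for K450RK451R. The Dox level was the lower in K450R and the higher in WT, each with overlapping Poisson intervals. The Dox log2 fold change was −0.021 (SE 0.11, 95% interval −0.24 to 0.20, edgeR adjusted p = 0.96).

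**Figure D3:**
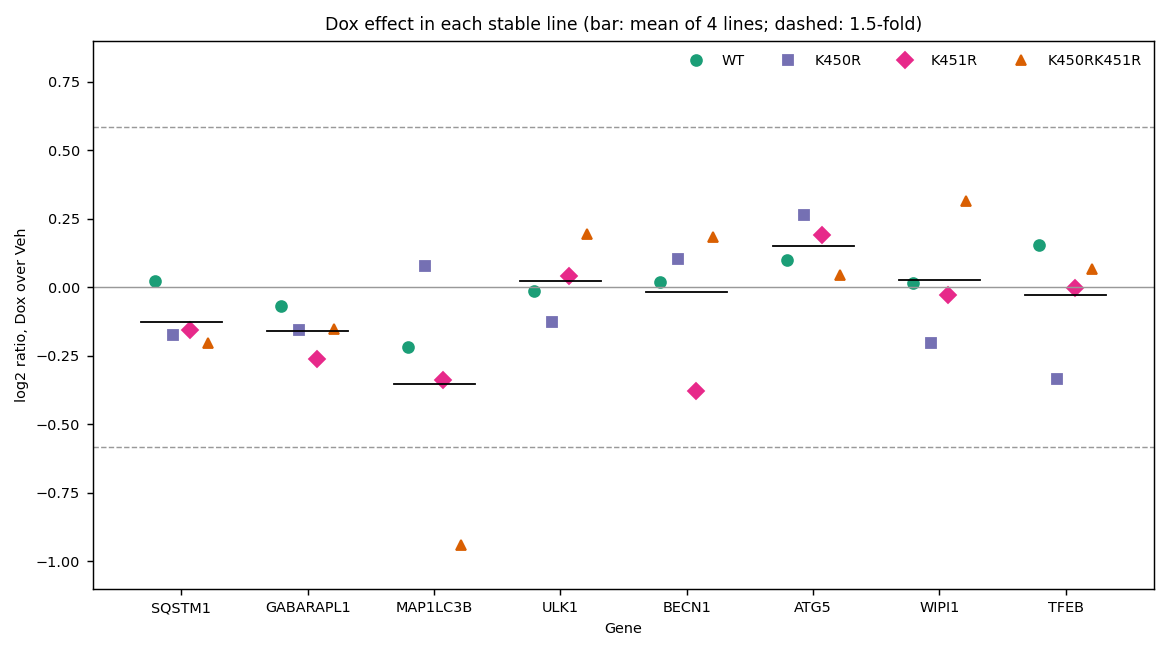
The log2 ratio of Dox over Veh (vertical axis) is plotted for each gene and stable line, each point being 1 line, with the mean of the 4 lines as a bar and 1.5-fold as dashed lines. GABARAPL1 lies below 0 in 4 of 4 lines, ATG5 above 0 in 4 of 4, and MAP1LC3B in K450RK451R, at −0.94, is the 1 point past 1.5-fold.

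Within lines, 17 of the 32 ratios were below 1 and 15 above it, and 6 had Veh and Dox intervals that did not overlap. Such intervals are relatively narrower at higher counts, and the share over all gene and line pairs was not computed. Apart from the cases above for SQSTM1, GABARAPL1, BECN1 and MAP1LC3B, the intervals of each pair overlapped. The median log2 fold change of the 8 genes was 0.089 with siEHMT1, beside −0.0021 for all genes tested, and −0.023 with Dox, beside 0.0050. In 6 of 8 genes the siEHMT1 and Dox estimates had opposite signs, beside 53.4% of all genes tested in both. The exceptions were ULK1, positive in both, and SQSTM1, negative in both. For the difference in Dox effect between WT and the mutants, edgeR adjusted p-values of the 7 genes other than SQSTM1 were 0.88 or more. In that comparison WT is a single line and was assumed to vary like the mutants.

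Levels also differed between the tables. The Veh and siNTC ranges of each gene did not overlap, and the share of all genes for which this held was not computed. MAP1LC3B was 2.90 times and GABARAPL1 2.83 times as high under Veh as in siNTC. SQSTM1 was 1.52 times, TFEB 1.42 times and ULK1 1.19 times as high, while WIPI1 (0.765), BECN1 (0.724) and ATG5 (0.711) were lower under Veh. The tables were normalized separately and the stable lines had been transduced and selected, so no test was made, and the table and the kind of cells cannot be told apart. Across 13524 genes the median log2 ratio was −0.10, and 45.4% were past 1.5-fold in either direction.

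Across the 10 conditions, siNTC gave the lowest level of MAP1LC3B, GABARAPL1, SQSTM1, ULK1 and TFEB and the highest of WIPI1 and ATG5. Of the 9 steps between neighbours in the order of levels, SQSTM1 had 4, GABARAPL1 2 and MAP1LC3B 1 with spreads that did not overlap, and the other 5 genes had 0. The spread was the range of the samples for siNTC and siEHMT1 and the Poisson interval for a stable-line condition. The step from K451R Dox to siEHMT1, which crosses the separately normalized tables, was among those without overlap for MAP1LC3B, GABARAPL1 and SQSTM1. For GABARAPL1 the Poisson intervals of siEHMT1 replicate 2 (42.1 to 49.7 CPM) and siNTC replicate 1 (38.7 to 46.7) overlapped. SQSTM1 had the most counts, and no share over all genes was computed for these steps. Among the 8 stable-line conditions, SQSTM1 was the 1 gene with neighbours whose Poisson intervals did not overlap, at 3 of 7 steps. The highest stable-line level was 1.98 times the lowest for MAP1LC3B, from K450RK451R Veh to K451R Dox, and 1.53 times for SQSTM1, from WT Dox to K451R Dox. For the other 6 genes this ratio was 1.27 (ULK1) to 1.44 (WIPI1). Over the 8 conditions, Pearson's r of log2 CPM was 0.80 between GABARAPL1 and SQSTM1, 0.72 between MAP1LC3B and GABARAPL1 and 0.70 between MAP1LC3B and SQSTM1, while TFEB and ATG5 had −0.75. These are descriptions over 8 points that share lines and scaling. Among 9076 genes of at least 10 CPM, the profile most like that of GABARAPL1 was that of JUN (r = 0.99), an immediate early transcription factor, followed by RASD1 (0.98). For SQSTM1 the nearest were TMEM45B (0.98) and NME3 (0.98), for MAP1LC3B PATL1 (0.98), and for TFEB PES1 (0.96) and ADD1 (0.96). For ATG5 they were BTBD3 (0.96) and ITPKB (0.95), for WIPI1 RAB32 (0.95) and NPRL3 (0.92), for ULK1 PPP2R1B (0.94) and SRFBP1 (0.93), and for BECN1 NR2C1 (0.88) and DDX21 (0.88). Picking the highest r of 9076 genes over 8 points favours high values, and no link between these genes was tested.

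The rest of the pathway was examined in 54 other autophagy genes and 24 lysosome genes, of which 52 and 23 could be tested. With siEHMT1, edgeR's test called 0 of them at an adjusted p under 0.05, as did limma-voom, and DESeq2 called 0 of the 37 to which it gave an adjusted p. At an unadjusted p under 0.05, 0 autophagy genes were higher and the 2 genes RB1CC1, a scaffold of the ULK complex, and SNAP29, a fusion factor, were lower, and 0 lysosome genes passed. Of all genes tested, 9.55% passed that threshold in either direction. The median log2 fold change of the autophagy genes was 0.011, and that of the lysosome genes 0.014, near that of all genes. The largest estimates were those of ATG16L2 (0.41), ATG9B (0.34), GABARAP (0.34), ATG10 (0.33) and RB1CC1 (−0.26), with edgeR adjusted p-values of 0.44 to 0.88.

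With Dox, edgeR again called 0 of these genes, and DESeq2 0 of the 68 to which it gave an adjusted p, while limma-voom called 1, WDR45B. At an unadjusted p under 0.05, 3 autophagy genes were higher and 8 lower, and 1 lysosome gene was higher and 4 lower. Of all genes tested, 14.4% passed that threshold in either direction, and 7.55% passed it and were lower. Negative estimates were the more frequent, in 34 of 52 autophagy genes (median −0.052) and 16 of 23 lysosome genes (median −0.054), while 51.2% of all genes were positive. By step, estimates were negative in 2 of 4 genes of initiation, 3 of 7 of nucleation, 8 of 8 of membrane expansion and 5 of 10 of conjugation. They were negative in 2 of 3 other ATG8 genes, 7 of 8 other cargo receptors, 4 of 7 of fusion and 3 of 5 other transcription factors. These tallies leave out the genes described above, such as WIPI1, a phosphoinositide reader with an estimate of 0.031. ATG9B, a paralog of the lipid scramblase ATG9A, had the largest estimate, a log2 fold change of −0.86 (SE 0.26, edgeR adjusted p = 0.083). Its Dox level was below its Veh level in 4 of 4 lines, with 4.4 and 3.83 CPM for WT, 5.39 and 2.98 for K450R, 4.57 and 1.55 for K451R and 4.94 and 2.48 for K450RK451R, on 19 to 52 counts. ZKSCAN3, a repressor of autophagy genes, had 0.41 (edgeR adjusted p = 0.28), ATG16L2 −0.39 (edgeR adjusted p = 0.13), the lysosomal channel MCOLN1 0.35 (adjusted p = 0.58) and the tethering factor TECPR1 0.31 (adjusted p = 0.063). WDR45B, a WIPI family member named here because 3 alternative fits called it, had −0.21 (edgeR adjusted p = 0.059). For the Dox effect of WT against the mutants, 0 were called, and 33 of 52 autophagy genes (median 0.064) and 14 of 23 lysosome genes (median 0.067) were positive, beside 50.3% of all genes.

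**Figure D4:**
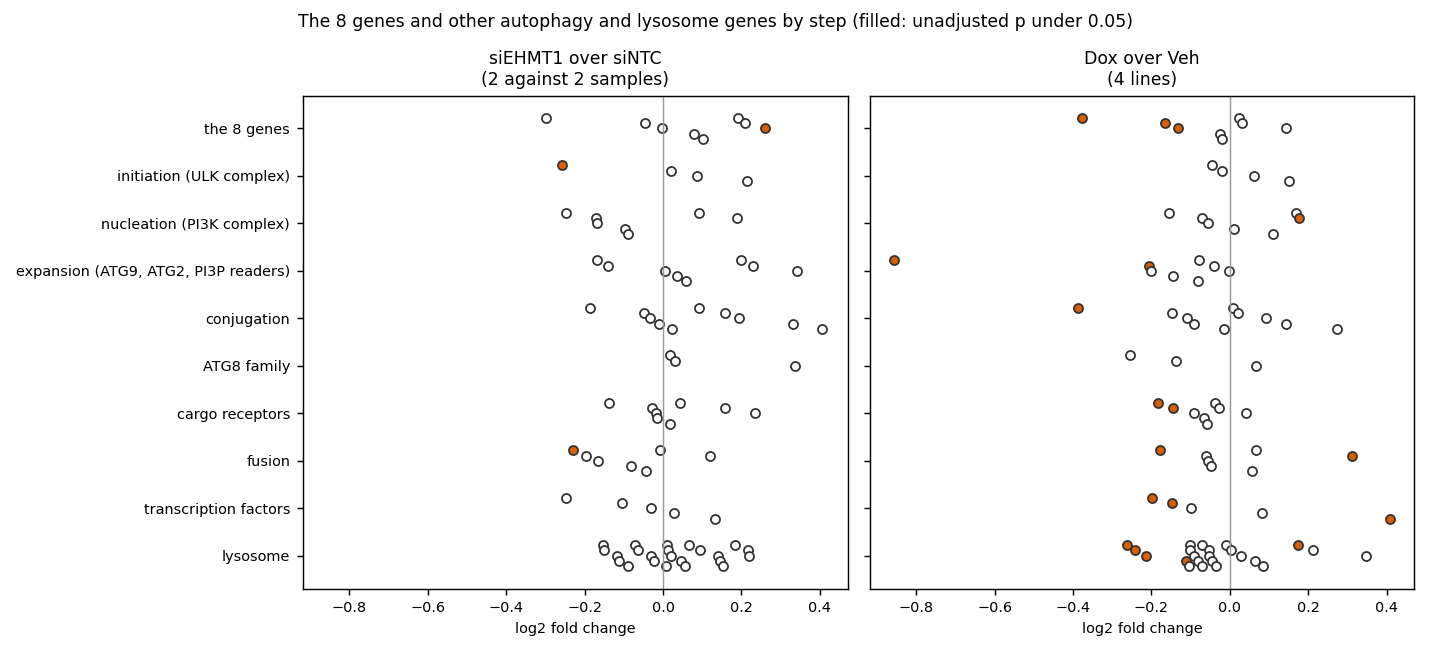
Fitted log2 fold changes (horizontal axis) are plotted by step for siEHMT1 over siNTC and Dox over Veh, each point being 1 gene and filled at an unadjusted p under 0.05. Of the other autophagy genes 27 of 52 are positive with siEHMT1 and 18 of 52 with Dox, and ATG9B, at −0.86, is the lowest point.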

How the data were processed

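RNA-seq of 20 LNCaP samples was analysed from 2 tables of raw gene counts deposited by the authors, without normalization. Libraries were stranded total RNA, read single-end and mapped to hg19. The submitters' processing notes name FastQC 0.11.9, STAR 2.7.2 and featureCounts 1.6.4. The annotation release and the strand and multi-mapping options are not given in the sources used here. Groups came from the sample labels.

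Counts were scaled by TMM, filtered with filterByExpr and fitted with edgeR 4.0.16 in R 4.3.3 (quasi-likelihood test, Benjamini-Hochberg adjustment over all genes tested), separately for each table. The 2 columns of a stable-line condition were summed, and the 4 lines were the replicates of the Dox effect, with line as a term. Within a line no test was made. Intervals on single levels are exact Poisson 95% intervals and cover counting error only, since reads carry no molecular identifiers. One count was worth 0.0773 to 0.196 CPM. Levels of 3 counts or fewer were treated as not detected.

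Gene models came from GENCODE release 44 on GRCh37, which held 55538 of the 57773 identifiers, near-identical copies from BLAST+ 2.17.0+, and promoters from RefSeq on GRCh38.p14. No coordinates were converted. The scripts were tested on simulated data. Alternatives were DESeq2 1.42.0, limma 3.58.1 voom, other scalings, no filter on low counts, a replicate block and leaving out each sample or line.

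The 8 genes and the gene lists were chosen with earlier results of these data known. Besides the 8 genes, the text names list genes with an adjusted p under 0.05, the 5 tested list genes with the largest absolute change in each main comparison, and the 2 genes nearest in profile to each of the 8. WDR45B, SNAP29 and NEU1 were named after their values were seen. One gene that this rule names is not reported here.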

Additional observations from a re-analysis of the deposited data

How the results depend on the processing

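Of the 8 genes, 0 were called under every alternative of siEHMT1 against siNTC and of WT against the mutants, where DESeq2 gave an adjusted p to 4 and 1 of them. Over the 4 lines, 1 was called without the WT line, SQSTM1 (−0.19), and 0 under the other alternatives. The number of genes called varied widely. For siEHMT1 it was 19, with 12 in DESeq2, 12 without the filter and 38 to 110 with 1 sample left out, where the lone sample is assumed to vary like the other group. The deviations of same-numbered siRNA samples had r = −0.0023 over 14532 genes. With 4 samples this cannot decide whether the numbers pair them, and the fit with a replicate block called 118 genes. In the stable lines Veh and Dox were paired by line, and a block on the column number could not be fitted because the columns were summed. For Dox it was 298, with 140 in DESeq2, 4 without the line term, and 114 to 501 with 1 line left out (501 without WT, 122 without K450R, 114 without K451R). For WT against the mutants it was 23, with 15 without the filter, 43 in limma-voom, 33 to 101 with 1 mutant line left out (101 without K450R, 43 without K450RK451R). Of the other autophagy and lysosome genes, Dox called 1 with upper-quartile scaling (TECPR1), 2 without the filter (ATG9B, WDR45B), 1 in limma-voom (WDR45B) and 5 without WT (NEU1, TECPR1, ATG9B, GABARAP, WDR45B). In the same order, these fits called 298, 346, 285 and 501 of all genes.

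With siEHMT1, SQSTM1 was 0.021 with upper-quartile scaling, 0.0015 without the filter, 0.00048 without the rRNA-like pseudogenes, 0.0069 without siNTC replicate 1 and 0.015 without siEHMT1 replicate 2. Over the samples left out, SQSTM1 ranged from −0.019 to 0.015, MAP1LC3B from −0.25 to 0.36 (−0.11 without siNTC replicate 1), ATG5 from −0.18 to 0.071, TFEB from 0.0011 to 0.44, WIPI1 from −0.53 to −0.11 and BECN1 from −0.056 to 0.23. ATG5 was 0.064 without siNTC replicate 2 and 0.071 without siEHMT1 replicate 1, and BECN1 was −0.056 without siNTC replicate 2. With Dox, TFEB was 0.072 without K450R, BECN1 0.10 without K451R, and WIPI1 −0.077 and ULK1 −0.041 without K450RK451R. TFEB ranged down to −0.088 and BECN1 to −0.10 over the lines left out. In WT against the mutants, WIPI1 was 0.0062 in DESeq2, ATG5 0.00036 without K450R, and BECN1 −0.12 without K451R. Without K450RK451R, MAP1LC3B was −0.078, WIPI1 0.15 and ULK1 0.046. MAP1LC3B reached 0.48 without K450R, and BECN1 reached 0.18 without K450RK451R. The cause of these changes was not tested. GABARAPL1 kept its sign in every alternative fit of siEHMT1 and of Dox over the 4 lines, from 0.15 to 0.37 with siEHMT1 and from −0.20 to −0.13 with Dox, with edgeR, DESeq2 or limma adjusted p-values of 0.29 or more and 0.11 or more. Within lines, single columns and other scalings gave a ratio of the opposite sign for some genes near 0, such as GABARAPL1 in WT (0.027, column 2 alone).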
